A study of Cicer arietinum with 8 samples.

Results

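The genes described here were chickpea (Cicer arietinum) gene models whose transcripts were at least 4-fold higher in salt-stressed root than in unstressed root. Their changes in desiccated root, in cold root and in all stressed shoots stayed within set limits, which allow large changes in FPKM at low levels. There were 79 such genes among 27248 annotated gene models. They were chosen by the difference of log2(FPKM + 1) between each stress library and the control library of the same tissue. FPKM is the number of sequenced fragments scaled to exon length and to the mapped fragments of the library. A member had a root salinity change of at least 2, absolute changes under 0.5 in root desiccation and root cold, absolute changes under 1 in all shoot comparisons, and at least 1 FPKM in at least 1 shoot library. The last condition keeps genes that shoots also express, so "root-only" describes the rise and not the place of expression.

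Roots and shoots came from 10-day-old seedlings of genotype ICC4958 kept for 5 h in water (control), on tissue paper (desiccation), in 150 mM NaCl (salinity) or in water at 4 ± 1 °C (cold). Messenger RNA libraries were made from total RNA, 1 for each of the 8 combinations of tissue and treatment. No group has a replicate, so the changes below are differences between pairs of libraries, with no p-value. The labels do not say how many seedlings went into a library.

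Salt around a root acts on plants in several ways. It lowers the water potential outside the root, which is a stress shared with drying and, in part, with cold, and it also brings sodium and chloride ions into root cells before they reach the shoot with the xylem stream. Plants are known to answer through hormone-dependent routes, above all abscisic acid, and through routes specific to ions, such as sodium export and sequestration. The files give the genes by identifier only, and 0 of the 27571 identifiers were found in the RefSeq gene table used here. No function is therefore attached to any of them, and the genes are ordered by where they were expressed without stress.

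The 79 members made up 10.8% of the 733 gene models that rose at least 4-fold in salt-stressed root. A rise of that size was seen in 4.54% of the 16129 gene models with at least 1 FPKM in the control or the salt-stressed root. Of the 733, 540 failed the limit in root desiccation, 461 the limit in root cold, 221 the limit in shoot desiccation, 216 that in shoot salinity and 119 that in shoot cold. A further condition, 1 FPKM in a shoot library, was not met by 95. When the same limits were turned to the other stresses, 1 of the 405 gene models that rose at least 4-fold in desiccated root did so alone, as did 1 of 365 in cold root, 8 of 351 in desiccated shoot, 1 of 211 in salt-stressed shoot and 0 of 46 in cold shoot. Falls of at least 4-fold that met the limits numbered 14 of 374 in salt-stressed root and 9 of 192 in desiccated shoot. They numbered 0 of 284 in desiccated root, 0 of 327 in cold root, 0 of 19 in salt-stressed shoot and 0 of 3 in cold shoot. The stress comparisons of a tissue share their control library, which bears on all these counts. The turned limits were also not equally strict, since those for desiccated and cold root require a root salinity change under 0.5. Among gene models with at least 1 FPKM in 1 library, the quartiles of the root salinity change were -0.52 and 0.58. They were -0.28 and 0.40 for root desiccation and -0.34 and 0.39 for root cold. The counts are therefore not ranked against each other.

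**Figure D1:**
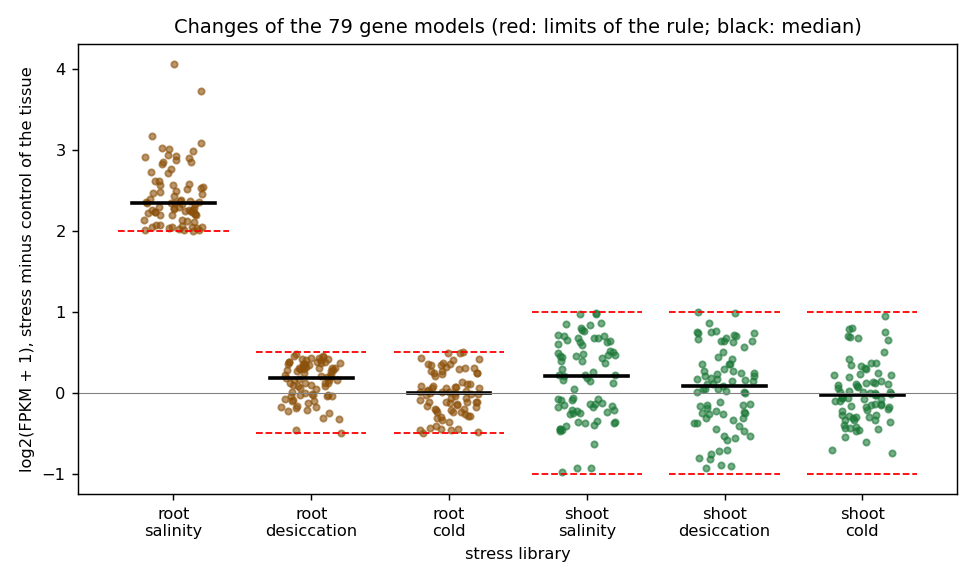
Changes of the 79 gene models in each stress library, as log2(FPKM + 1) minus the control of the same tissue. Each point is a gene model, the black bar is the median, and the red dashed lines are the limits that chose the genes; the root salinity changes run from 2.001 to 4.05 with a median of 2.34.

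Most rises lay near the lower limit. The root salinity change was under 2.5 in 53 members, from 2.5 to under 3 in 20 and at least 3 in 6. The median change was 2.34, against 2.69 in the other 654 gene models that rose at least 4-fold. Both groups were chosen by this change, so nothing is read from the difference. In FPKM, the salt-stressed root stood at a median of 6.27 times the root control in the 75 members with a control value above 0. The other 4 members were listed at 0 in the root control, where an exact 0 can also be a failed estimate, and no fold is given for them.

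Outside salt-stressed root the members had lower medians than the gene models with at least 1 FPKM in any library. The median of the members was 5.75 FPKM in the root control, 5.69 in desiccated root, 5.17 in cold root and 35.0 in salt-stressed root. In shoot the medians were 5.45 FPKM in the control, 5.46 under desiccation, 6.23 under salinity and 5.59 under cold. The gene models with at least 1 FPKM in any library had a median of 11.2 FPKM in the root control and 11.8 in the shoot control. In salt-stressed root, where the rule chose the members for their rise, that median was 12.3 FPKM. In the root control 13 members were under 1 FPKM, 24 from 1 to under 5, 26 from 5 to under 25, and 16 at 25 FPKM or more.

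Salt-stressed root was the highest of the 8 libraries for 72 of the 79 members, and it was at least 2-fold above every other library for 61. A 4-fold rise in root with shoot changes under the limit fixes this order for every gene less than 2-fold higher in unstressed shoot, so the count was open for the remaining 20 members only. Among those, salt-stressed root was highest for 13, lay below all shoot libraries for 5 and within their range for 2. The limits also fix the 2-fold margin for the 36 members with a higher level in root control than in shoot control. Nothing is therefore read from the count of 61.

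**Figure D2:**
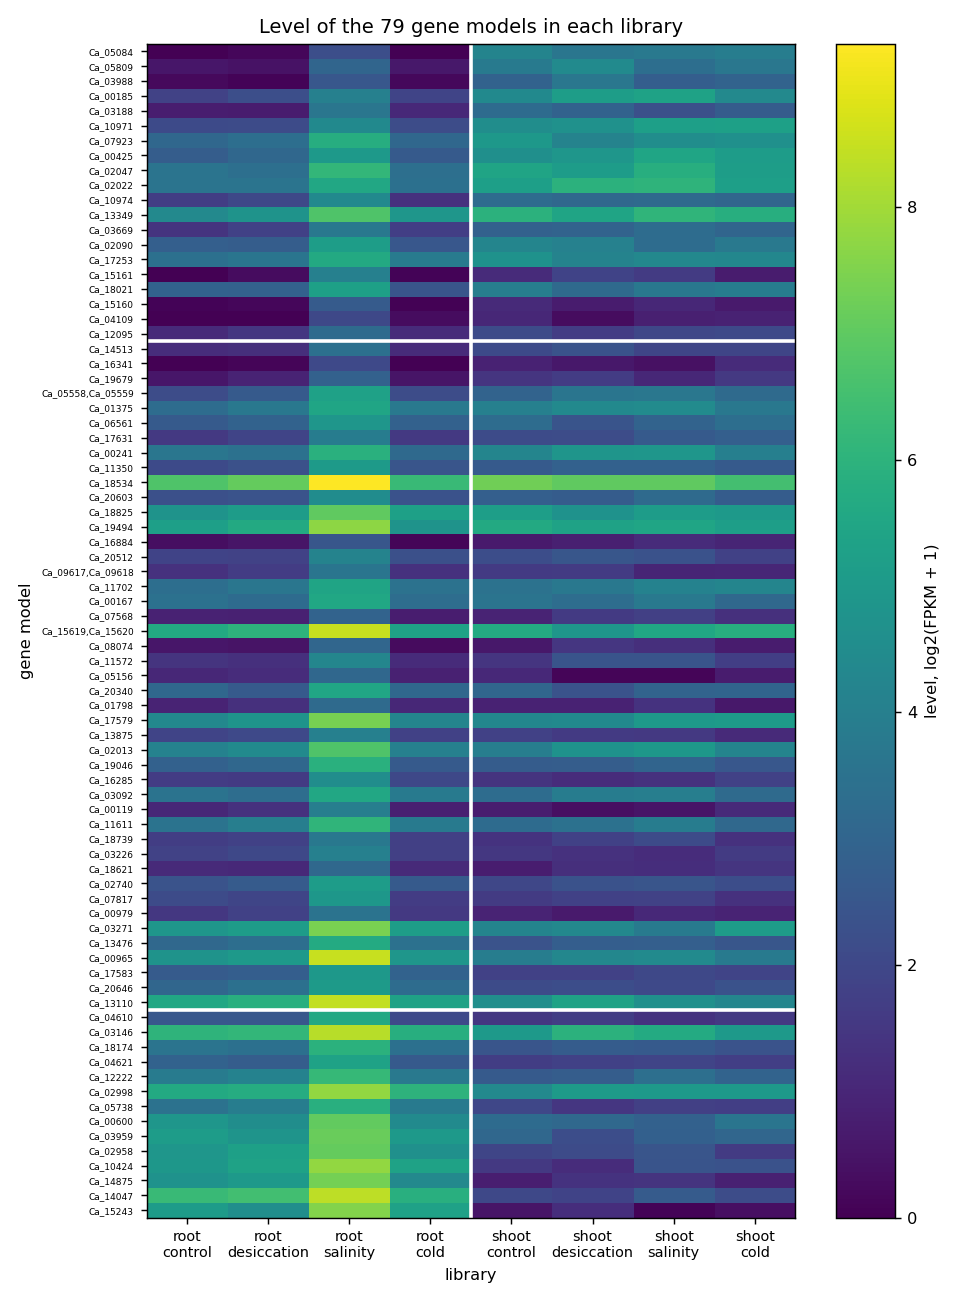
Level of each of the 79 gene models (rows) in each of the 8 libraries (columns), as log2(FPKM + 1) on a colour scale. White lines separate root from shoot and, from top to bottom, the 20 genes at least 2-fold higher in shoot control than in root control, the 45 within 2-fold and the 14 at least 2-fold higher in root control; the root salinity column is the brightest of the 4 root columns in every row.

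The largest rise was that of Ca_15161. Its value in the root control was listed at 0, and it had 0.239 FPKM in desiccated root, 0.0559 in cold root and 15.6 in salt-stressed root. In shoot it had 1.20 FPKM in the control, 2.61 under desiccation, 2.04 under salinity and 0.635 under cold. Salt-stressed root was thus the only library in which it passed 3 FPKM, and its root salinity change was 4.05 on the log2(FPKM + 1) scale. Ca_00965 had the next largest change, 3.73, at a far higher level. It stood at 26.3 FPKM in the root control, 30.6 in desiccated root, 28.5 in cold root and 361 in salt-stressed root, and at 14.3, 18.6, 20.6 and 12.7 FPKM in control, desiccated, salt-stressed and cold shoot. Its level in salt-stressed root was 11.8 times that of the next highest library, the largest such ratio among the members.

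Ca_15161 and Ca_15160, another member, are listed 2 rows apart in the files. Ca_15160 stood at 0.0583 FPKM in the root control, 0.121 in desiccated root, 0.0511 in cold root and 5.31 in salt-stressed root, with 0.601 to 1.17 FPKM in shoot. The row between them, Ca_15159, went the other way in root, from 10.7 FPKM in the control to 7.57 under salinity. The row after Ca_15160, Ca_15162, was at 0.140 FPKM in the root control, at 1.07 in salt-stressed root and listed at 0 in all other stress libraries. The files give no coordinates, so whether these rows are neighbours on a chromosome was not tested.

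The next largest changes were in the range of 2.91 to 3.17. The locus carrying Ca_05558 and Ca_05559 together went from 3.45 FPKM in the root control to 39.2 in salt-stressed root, with 5.22 under desiccation and 3.49 under cold, and held 6.80 to 11.8 FPKM in shoot. Ca_04610 went from 4.79 to 47.9 FPKM, with 4.71 and 3.13 FPKM under desiccation and cold, and held 1.59 to 2.23 FPKM in shoot. Ca_17579 went from 19.4 to 164 FPKM, with 26.8 and 17.5 FPKM in the other stressed roots, and held 18.8 to 33.4 FPKM in shoot. Salt-stressed root stood at 3.32, 9.996 and 4.93 times the next highest library for these loci, in that order. The change was 3.01 for Ca_19046 (6.30 to 57.9 FPKM), 2.98 for Ca_11350 (3.22 to 32.3 FPKM), 2.93 for Ca_00119 (1.06 to 14.7 FPKM), 2.92 for Ca_16285 (2.11 to 22.6 FPKM) and 2.91 for Ca_13110 (45.1 to 346 FPKM).

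The highest level in salt-stressed root was that of Ca_18534. It had 104 FPKM in the root control, 134 under desiccation, 625 under salinity and 78.1 under cold, and in shoot 154, 130, 128 and 91.2 FPKM in the same order. It was also the most abundant member in unstressed root and in shoot. The locus of Ca_15619 and Ca_15620 followed, with 49.4 FPKM in the root control, 63.4 under desiccation, 361 under salinity and 40.2 under cold, and 50.8, 28.6, 44.8 and 55.0 FPKM in shoot. Both had a single high library, salt-stressed root, and root and shoot lay within 2-fold of each other in the controls.

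The limits cut through a continuous range. Ca_04109, the member with the smallest rise, had a change of 2.0013 and was listed at 0 in the root control, with 3.004 FPKM in salt-stressed root. Ca_02022 and Ca_20646 were next, at 2.004 and 2.008, and Ca_20646 went from 7.29 FPKM in the root control to 32.3 in salt-stressed root. Ca_06215 met all other limits and missed this one at 1.9998, with 9.49 FPKM in the root control and 40.95 in salt-stressed root. For root desiccation, Ca_15243 was inside the limit at -0.4995 and Ca_19495 outside at 0.5047. For root cold, Ca_18825 was inside at 0.4982 and Ca_12273 outside at -0.5045. For shoot desiccation, Ca_11572 was inside at 0.99 and Ca_16082 outside at 1.02, and for shoot salinity Ca_11572 was inside at 0.98 and Ca_21459 outside at 1.003. No gene model (0) failed the limit in shoot cold alone, where Ca_03271 was closest at 0.95. On the shoot minimum, Ca_04109 reached 1.02 FPKM and Ca_14454 reached 0.823. Root desiccation alone kept out 52 gene models and root cold alone 27.

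The members were then compared between root and shoot, where the rule used no direct contrast. In the controls 20 members were at least 2-fold higher in shoot, 14 were at least 2-fold higher in root, and 45 lay within 2-fold. Among the 16647 gene models with at least 1 FPKM in either control, 19.5% were higher in shoot and 19.5% higher in root. Of the 74 members that met this minimum, 27.0% were higher in shoot and 18.9% higher in root. The median difference, root minus shoot, was -0.04 in the members and -0.02 in all gene models considered. The shoot minimum of the rule favours genes with a level in shoot. Bulk tissue was sequenced, so a difference in level cannot be divided into the number of cells that express a gene and the amount of RNA in each.

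**Figure D3:**
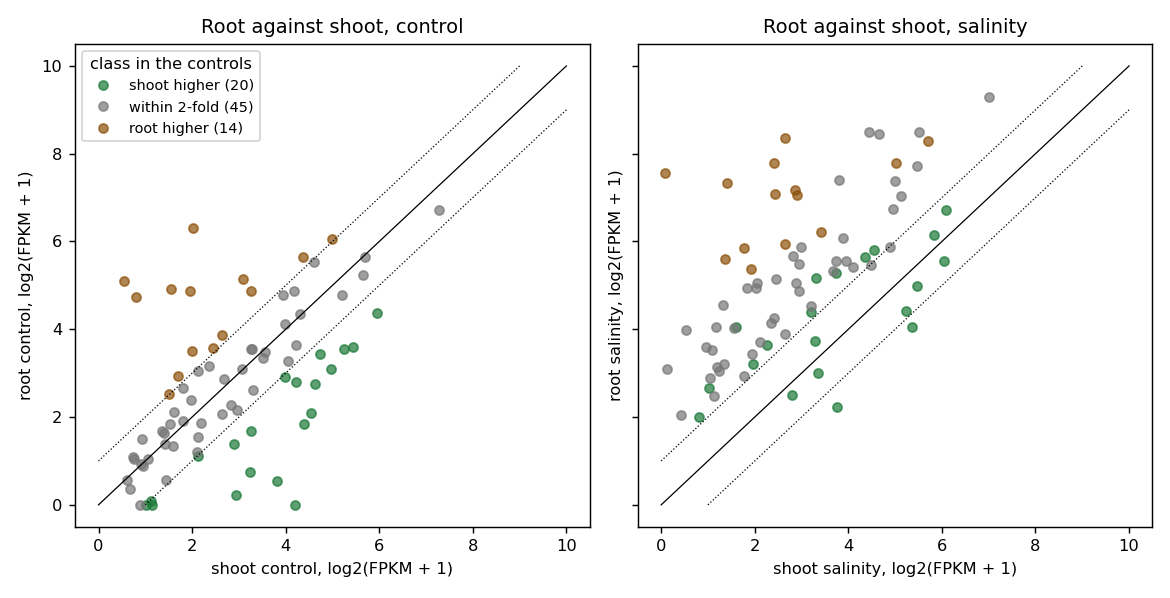
Level in root against level in shoot, both as log2(FPKM + 1), in the control libraries (left) and the salinity libraries (right). Each point is 1 of the 79 gene models, coloured by its class in the controls; the solid line marks equal levels and the dotted lines 2-fold differences, and 67 points lie on or above the upper dotted line under salinity, against 14 in the controls.

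Under salinity 67 of the 79 members were at least 2-fold higher in root than in shoot and 2 were at least 2-fold higher in shoot. The shares among 16658 gene models were 20.0% and 18.5%. The rise in root that defined the members enters this comparison, so nothing is read from the contrast with all gene models. The median difference moved from -0.04 in the controls to 1.91 under salinity.

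The 20 members higher in unstressed shoot had a median of 2.40 FPKM in the root control, 17.9 in salt-stressed root and 16.1 in the shoot control. Ca_05084 had the widest difference. Its root control value was listed at 0, with 0.120 FPKM in desiccated root, 0.0162 in cold root and 3.66 in salt-stressed root, against 17.4, 11.5, 12.6 and 14.2 FPKM in control, desiccated, salt-stressed and cold shoot. Its rise thus ended at 26.2% of its mean shoot level. Ca_05809 had 0.465, 0.381, 7.08 and 0.530 FPKM in control, desiccated, salt-stressed and cold root, and 13.1, 21.0, 9.19 and 11.9 FPKM in the corresponding shoots. Ca_03988 had 0.171, 0.0717, 4.70 and 0.139 FPKM in root and 6.63, 11.9, 5.92 and 6.71 FPKM in shoot. For these 3 genes every root library, salt-stressed root included, lay below every shoot library.

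Other members of this class reached or passed the shoot level. Ca_03188 went from 0.669 FPKM in the root control to 11.5 in salt-stressed root, with 0.641 under desiccation and 1.12 under cold, and in shoot it had 8.50 FPKM in the control and 6.55, 3.83 and 5.51 under desiccation, salinity and cold. Ca_13349 had 19.8, 26.6, 104 and 28.2 FPKM in control, desiccated, salt-stressed and cold root, and 42.2 to 66.9 FPKM in shoot. Ca_02022 had 10.8, 10.9, 46.2 and 9.86 FPKM in root and stayed within its shoot range of 36.8 to 65.0 FPKM. As a measure of shoot material in the root libraries, 27 gene models that reached 100 FPKM in every shoot library and were under 1 FPKM in the root control had a median of 0.200 FPKM in salt-stressed root, 0.127 in desiccated root and 0.195 in cold root. In salt-stressed root 4 of the 27 reached 1 FPKM, with 3.47 FPKM as the highest, and in desiccated and cold root 2 each did, with 6.12 and 3.004 FPKM as the highest. In the root control, which the choice of the 27 held under 1 FPKM, their median was 0.0812 FPKM. Relative to their mean shoot level, the medians were 0.0153% in control, 0.0261% in desiccated, 0.0253% in salt-stressed and 0.0352% in cold root. Members of this class stood in salt-stressed root at 26.2% (Ca_05084) to 961% (Ca_15161) of their mean shoot level. The part of such material in the values of the members was not tested.

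The 45 members within 2-fold in the controls had a median of 3.86 FPKM in the root control, 29.9 in salt-stressed root and 3.54 in the shoot control. Of the 10 members with the largest rises 8 belonged to this class, while Ca_15161 was higher in unstressed shoot and Ca_04610 in unstressed root.

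The 14 members higher in unstressed root had the highest class medians in root, with 28.2 FPKM in the root control, 139 in salt-stressed root and 3.03 in the shoot control, though the single highest members in salt-stressed root belonged to the class within 2-fold. Ca_14047 had 78.3 FPKM in the root control, 88.3 under desiccation, 325 under salinity and 56.8 under cold, against 2.66 to 5.29 FPKM in shoot. Ca_15243 had 33.4, 23.3, 187 and 38.7 FPKM in control, desiccated, salt-stressed and cold root, and 0.457, 1.33, 0.0616 and 0.301 FPKM in the corresponding shoots. Ca_14875 had 25.5, 31.5, 160 and 19.6 FPKM in root and 0.736 to 1.64 FPKM in shoot. Root and shoot levels of these genes were far apart in every treatment. The distance was wider under salinity than in the controls, which the limits require of any member higher in unstressed root. Ca_03146 (65.2 FPKM in the root control and 314 in salt-stressed root) and Ca_02998 (49.2 and 219 FPKM) had the highest shoot levels of the class, at 30.6 to 61.7 and 19.8 to 32.7 FPKM.

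A test of root against shoot was possible because each tissue has 4 libraries. An additive model of tissue and treatment was fitted with limma to all loci whose mean reached 1 FPKM, which included 77 of the 79 members. In this fit the differing treatments supply the spread, and the rise under salinity counts as error and raises the root mean. Of the 77 members, 15 (19.5%) were higher in root and 7 (9.09%) higher in shoot at an adjusted p under 0.05. Among the 16477 gene models tested these shares were 18.1% and 17.3%. The share higher in root was near that of all gene models.

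Ca_14047 was higher in root by 4.57 (SE 0.34, limma adjusted p = 0.000146), Ca_15243 by 5.09 (SE 0.62, limma adjusted p = 0.00115) and Ca_14875 by 4.26 (SE 0.43, limma adjusted p = 0.000516), in 4 of 4 treatments each. Ca_05084 had a root minus shoot difference of -3.28 (SE 0.46, limma adjusted p = 0.0021), Ca_05809 of -2.67 (SE 0.59, limma adjusted p = 0.0136) and Ca_03988 of -2.33 (SE 0.53, limma adjusted p = 0.0158), each with the lower level in root in 4 of 4 treatments. The rise that chose the members raises the root side of every one of these estimates and enters their SE, and the rule also limited their other changes. The adjusted p-values therefore describe the fit and are not used as support for a tissue difference. In the controls alone the differences were 4.28 for Ca_14047, 4.56 for Ca_15243 and 3.93 for Ca_14875. They were -4.20 for Ca_05084, -3.27 for Ca_05809 and -2.70 for Ca_03988. Of the 15 members called higher in root, 12 were at least 2-fold higher in the root control and 3 were within 2-fold there. Those 3 were Ca_00979, Ca_17583 and Ca_20646. All 7 called higher in shoot were at least 2-fold higher in the shoot control, with differences from -3.28 to -1.60 (Ca_02022).

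Without the salinity libraries the fit held 70 members, of which 15 were higher in root and 16 higher in shoot, or 21.4% and 22.9%, against 15.4% and 15.0% of gene models. That fit is also touched by the rule, which limited the spread of the members among the remaining libraries. Without the cold libraries 9 members were higher in root and 4 higher in shoot, or 11.7% and 5.19%. Of the gene models, 11.7% and 12.8% were called in that fit.

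**Figure D4:**
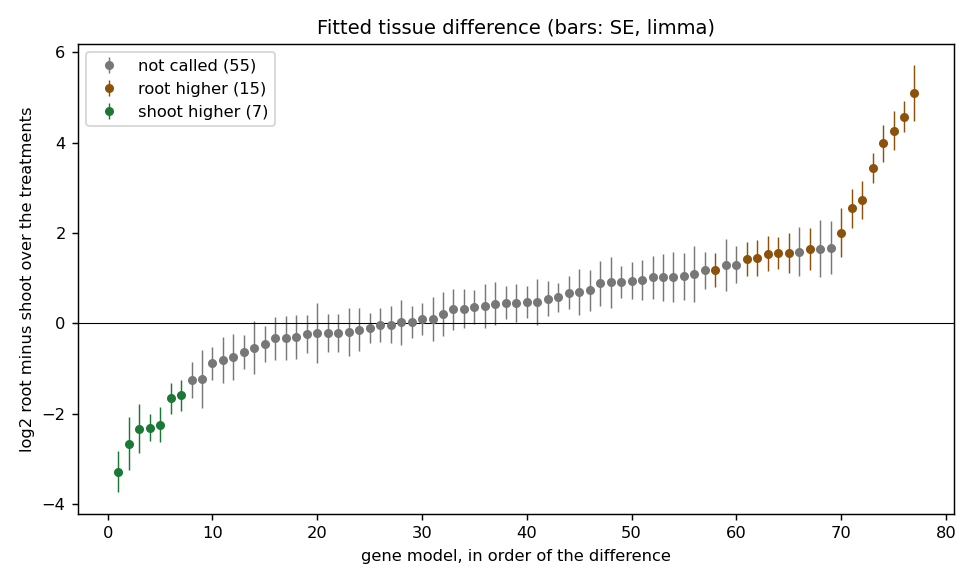
Fitted root minus shoot difference on the log2(FPKM + 1) scale for the 77 gene models whose mean reached 1 FPKM, in order of the difference. Points are estimates over the 4 treatments, bars are SE from limma, and colours mark the 15 called higher in root, the 7 called higher in shoot and the 55 not called.

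In shoot the rule allowed changes of up to 1 on the log2(FPKM + 1) scale, which for weakly expressed genes is more than 2-fold in FPKM, and the members differed within that room. Under salinity 45 members were above and 34 below the shoot control, with a median change of 0.20. Of all 7431 gene models inside the limits other than the root salinity rise, 47.5% were above the shoot control under salinity, and nothing is read from this difference because the rule used the contrast. The change was at least 0.5 in 22 members, at most -0.5 in 4 and between these values in 53. Ca_11572 was the member nearest the upper limit. It had 1.69 FPKM in the shoot control, 4.35 under desiccation, 4.30 under salinity and 2.33 under cold, and in root 1.63, 1.45, 18.0 and 1.20 FPKM in control, desiccated, salt-stressed and cold tissue. Ca_03188, described above, was nearest the lower limit with a shoot salinity change of -0.97. Its level thus rose in root and was lower in shoot under the same treatment. In desiccated root 55 members were above the control and 23 below it, with a median change of 0.18, and in cold root 38 were above and 40 below, with a median of -0.01. Among the 7431 gene models 54.7% were above the control in desiccated root and 49.4% in cold root, and again nothing is read from contrasts that the rule used.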

How the data were processed

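Messenger RNA of 4 root and 4 shoot libraries was sequenced. The deposited values are FPKM, 1 file of 34193 loci per library. The authors made the FPKM with Cufflinks from TopHat alignments to the chickpea genome, after read filtering with NGS QC Toolkit, per the design text of the series. Their versions, the build and the annotation are not given in the sources used. All columns were mapped to samples by title.

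FPKM depends on gene length and library composition. The share of summed FPKM in annotated gene models was 45.9% to 52.0% in root and 21.3% to 26.8% in shoot. Read totals are not known. From the steps that single fragments make at low values, depth relative to the root control was 1.21 to 1.31 in the other libraries, and 75.1% of 421 low loci were whole multiples of their lowest scaled value in every library, within 5%. If that lowest value is 1 fragment, the median worth of 1 FPKM at the whole loci was 24.7 fragments in the root control. Those loci were picked for low values, which favours long genes, and at shorter genes 1 FPKM stands for fewer fragments. No count test was run.

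Changes are differences of log2(FPKM + 1), which understate changes of weakly expressed genes. Tissue and treatment were the terms of an additive fit in R 4.3.3 with limma 3.58.1, with a mean-variance trend, to log2(FPKM + 1) of loci with an average of 1 FPKM or more, with 3 residual degrees of freedom and Benjamini-Hochberg adjustment over all loci, threshold 0.05. The labels do not say that libraries come from separate plants, and the p-values cover no more than the spread among these libraries. As working checks, the fit was run on simulated data and the rule on rows with values set by hand. Tables and figures used Python 3.11.15, numpy 2.4.6, pandas 2.3.3 and matplotlib 3.10.9.

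The members and lists were chosen with earlier results of these data known. Genes were named by rule: the 10 largest rises, the 5 highest levels in salt-stressed root, in shoot and in root control, the 3 smallest rises, the 3 largest called tissue differences each way, and the nearest gene on either side of each limit. Ca_03188, Ca_11572, Ca_15160 and its neighbours, Ca_00979, Ca_17583 and the genes of the closing section were named after their values were seen. Of the members, 3 are loci that carry several identifiers each, and 4 members have an identifier found on several loci, so reads could be merged or split there. Product-name lists and tissue markers could not be applied, since no identifier is paired with a name. Alternatives were other pseudocounts, rescalings, limits, filters and left-out treatments.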

Additional observations from a re-analysis of the deposited data

Results flagged for a closer look

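Under salinity 34 of the 79 members stood above the control in root, as the rule required, and below it in shoot. Of these shoot changes 4 were -0.5 or lower on the log2 scale. Among the 7431 gene models inside the other limits, which include the members, 3900 were below the shoot control. Nothing is read from the difference in share, because the rule used the contrast. The difference between root and shoot was not tested, since a tissue has 1 library per treatment.

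Outside the annotated gene models, 14 loci without an annotated gene met all other limits of the rule. The most abundant in salt-stressed root were XLOC_024158, at 91.6 FPKM in the root control and 1078 in salt-stressed root, and XLOC_012491, at 151 and 847 FPKM. XLOC_013776 was listed at 0 in control, desiccated and cold root and had 27.6 FPKM in salt-stressed root, against 828 to 1407 FPKM in shoot.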

How the results depend on the processing

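The number of members stayed within 1.5 times of 79 with pseudocounts of 0.1 (63) and 5 (65), median-ratio rescaling (77), quantile normalization (75), a minimum of 5 FPKM in salt-stressed root, no shoot minimum, unannotated loci added, or loci with shared identifiers removed. The last was chosen after seeing the data. The genes themselves changed more, since 42 of the 79 were kept with a pseudocount of 0.1, 31 with 5, 68 with median-ratio rescaling and 60 with quantile normalization. Limits moved the number further: a root salinity change of at least 1 gave 569 members and of at least 3 gave 6, a root limit of 1 gave 158 and of 0.25 gave 24, a shoot limit of 0.5 gave 33 and a shoot minimum of 5 FPKM gave 46. With a pseudocount of 5, 8 members were 2-fold higher in root control and 13 in shoot control. In the limma fit, no filter on low values left 7 called higher in root and 3 in shoot, or 8.86% and 3.80%. The shares among gene models were 7.75% and 9.08%. Leaving out cold left 9 and 4, or 11.7% and 5.19%, against 11.7% and 12.8% of gene models. Leaving out salinity gave 16 higher in shoot, or 22.9%, against 15.0% of gene models. That fit lacks the rise that chose the members, and their median difference was -0.02, against 0.46 in the main fit. The cause of the changes in these counts was not tested. The counts under salinity stayed within 1.5 times in all settings run. The root salinity change of the 24 named members, whose sign the choice of members fixes, ran from 0.68 to 3.54 at a pseudocount of 5 and from 2.05 to 7.29 at 0.1. No paired analysis was possible because each tissue and treatment has 1 library, apart from the tissue fit, in which treatment already pairs root with shoot.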

Other observations

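Ca_18534 had a profile close to that of 3 other loci in all 8 libraries, which was noticed after the values were seen. Its FPKM was 2.56 to 3.29 times that of Ca_19494, another member. It was 1.98 to 2.42 times that of Ca_19495, which missed the limit in root desiccation, and 0.638 to 0.819 times that of the unannotated XLOC_012491. Ca_19494 had 36.6, 49.1, 211 and 26.4 FPKM in control, desiccated, salt-stressed and cold root, and Ca_19495 had 45.6, 65.1, 315 and 37.0 FPKM. Whether these loci share reads was not tested, so their levels are uncertain as separate values.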
